A study of Mus musculus with 6 samples.

Results

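Il17f, Il23r, Il17b and Batf are the genes of the interleukin-17 (IL-17) axis, with one transcription factor linked to it, that were found in the authors' deposited tables of genes differing between WT.GFP+ and ERα-/-.GFP+ mammary epithelial cells (MECs). They were picked by gene name and make up 4 of the 651 genes in these tables. Il17f, Il23r and Il17b had lower transcript levels in ERα-/-.GFP+ MECs and Batf had a higher one. Il17f was 8.04-fold lower, Il23r 5.99-fold lower, Il17b 3.64-fold lower and Batf 2.30-fold higher. Because the genes were taken from tables that hold only genes past the authors' thresholds, and were chosen for these directions, their differences are given as a description without a test.

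IL-17 cytokines are secreted proteins that act on epithelial and stromal cells and induce chemokines and antimicrobial proteins. Il17f encodes IL-17F, a close relative of IL-17A that is made by T helper 17 cells, type 17 γδ T cells and group 3 innate lymphoid cells. Il23r encodes the chain of the IL-23 receptor that sets it apart from the IL-12 receptor, and IL-23 maintains the lymphocytes that make IL-17A and IL-17F. Il17b encodes IL-17B, a distant family member that is made by non-haematopoietic cells and binds another receptor. Batf encodes a transcription factor of the AP-1 family that pairs with JUN proteins and IRF4, is needed for T helper 17 differentiation and is also used by activated and cytotoxic T cells.

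The study asked which transcripts depend on oestrogen receptor α (ERα, encoded by Esr1) within engrafted MECs. Donor MECs carried an enhanced GFP transgene under an actin promoter in a C57Bl6 background and were either WT or ERα-/- in the germ line, and each was injected intraductally on one side of NSG females, a NOD strain with the Prkdc scid and Il2rg mutations. The hosts were pregnant when GFP+ cells were sorted by flow cytometry, and RNA was sequenced from 3 WT.GFP+ and 3 ERα-/-.GFP+ samples. NSG mice lack mature T, B and natural killer cells of their own. The flow cytometry methods describe glands as pooled and list a CD45 antibody, which marks leukocytes, but for sequencing the sort is described by GFP alone. Ages were not given in the sources used here.

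The authors deposited, for each genotype, the mean raw count of a gene and its mean log2 CPM, where CPM is a count scaled to 1000000 reads of depth. Values of single samples were not analysed here. The replicate spread is therefore unknown, and each interval given here is the 95% exact binomial or Poisson interval of the summed reads, which covers counting error only. Mean depth was 27190483 reads per WT.GFP+ sample and 29326709 per ERα-/-.GFP+ sample, as estimated from abundant genes. The columns name no genotype, and the genotype of each was taken from the direction stated with the study, so the direction of every difference rests on it. Esr1 was in neither table, so the targeted gene could not check it. Of the 651 genes, 566 or 86.9% were lower without ERα and 85 or 13.1% were higher. The number of genes that were tested is not given in the tables, so a gene outside them may have differed by less than the thresholds or have been too low to be tested.

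Il17f lies on chromosome 1 of GRCm38 from 20777146 to 20790617 on the minus strand. The 3 WT.GFP+ samples held 82 reads of Il17f together, a mean of 27.3 per sample, and the 3 ERα-/-.GFP+ samples held 11, a mean of 3.67. This is 1.01 CPM against 0.125 CPM. The log2 fold of ERα-/-.GFP+ over WT.GFP+ was -3.01, with a counting interval from -4.06 to -2.09. Il17f was thus the least abundant of the 4 genes, and its fold has the widest interval. By the size of its fold it was at position 23 of the 566 lower genes, and by its count in WT.GFP+ MECs at position 498. The fold position uses a floor of 3 reads for means of 1 or less, so genes placed below Il17f by this floor may have larger folds. Its neighbour Il17a, 42650 bases away on the same chromosome, encodes the cytokine with which IL-17F pairs, and it was in neither table.

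Il23r lies on chromosome 6 from 67422932 to 67491855, also on the minus strand. A WT.GFP+ sample had 113 reads of it on average and an ERα-/-.GFP+ sample 20.3, from 339 and 61 reads in all. In CPM these were 4.16 and 0.693. The log2 fold was -2.58, with a counting interval from -3.00 to -2.19, so that the intervals of Il17f and Il23r overlap. Il12rb2, which encodes a chain of the IL-12 receptor and lies 46744 bases from Il23r, was in neither table.

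ERα binds DNA at oestrogen response elements, which are built of the core GGTCA, so the 250 bases before the RefSeq start (GRCm38.p6) were searched on both strands. The search is reported for 3 of the 4 genes. It is not reported here for Il17b, which was also lower. The bases are shown for Il17f (chr1:20784271-20784520, minus strand), Il23r (chr6:67491856-67492105, minus strand) and Batf (chr12:85686470-85686719, plus strand), read in the direction of the gene, because the first pair was lower and the last higher. Capitals mark matches to the core on either strand.
Il17f: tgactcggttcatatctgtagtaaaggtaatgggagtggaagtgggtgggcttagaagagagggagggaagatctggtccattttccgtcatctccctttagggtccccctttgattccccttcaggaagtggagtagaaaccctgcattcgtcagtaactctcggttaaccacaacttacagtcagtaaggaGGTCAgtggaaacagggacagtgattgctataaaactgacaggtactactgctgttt
Il23r: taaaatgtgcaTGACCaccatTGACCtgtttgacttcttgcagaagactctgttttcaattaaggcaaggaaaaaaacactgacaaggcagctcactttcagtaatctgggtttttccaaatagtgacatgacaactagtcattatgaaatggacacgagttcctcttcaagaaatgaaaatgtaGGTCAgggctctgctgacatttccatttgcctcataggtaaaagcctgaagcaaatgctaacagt
Batf: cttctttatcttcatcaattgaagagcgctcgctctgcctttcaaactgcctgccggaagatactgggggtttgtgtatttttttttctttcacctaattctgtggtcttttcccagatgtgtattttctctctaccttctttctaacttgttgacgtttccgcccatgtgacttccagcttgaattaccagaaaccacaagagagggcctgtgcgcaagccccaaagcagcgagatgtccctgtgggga
The Il17f sequence held 1 core, 57 bases before the start on the strand of the gene. The Il23r sequence held a core 65 bases before the start on the strand of the gene and 2 on the opposite strand, beginning 229 and 239 bases before it. The Batf sequence held none. Of 32851 promoter sequences of this length, 35.2% held the core. The palindromic oestrogen response element, with any 3 bases as its spacer, was present in 0.0639% of all promoters and the AP-1 element TGANTCA in 6.75%, and neither was found in these 3 sequences. The RefSeq start of Il17f lies within the gene's longer span in the GENCODE annotation, so starts other than this one are annotated. These matches describe the letters only.

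**Figure D1:**
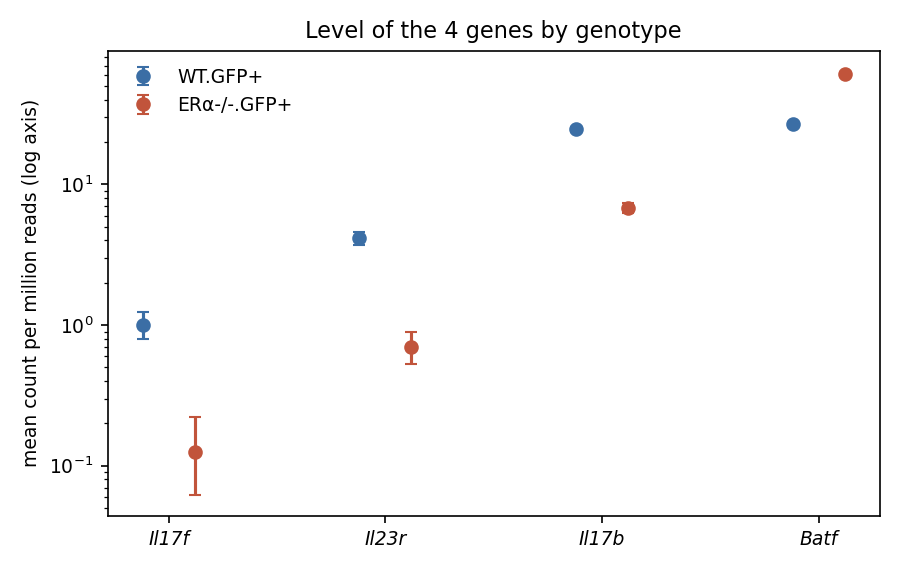
Mean CPM (log axis) of Il17f, Il23r, Il17b and Batf in WT.GFP+ (blue) and ERα-/-.GFP+ (red) MECs, with bars for the 95% Poisson interval of the summed reads of 3 samples, which covers counting error only. Il17f lies at 1.01 and 0.125, Il23r at 4.16 and 0.693, Il17b at 24.7 and 6.77 and Batf at 26.7 and 61.4. No pair of intervals overlaps, but all 4 genes were already called as differing by the authors. The share without overlap over all 651 listed genes was not counted.

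Other genes of the pathway were compared from lists written with earlier results of these data known. Of 6 IL-17 family cytokines (Il17a, Il17b, Il17c, Il17d, Il17f and Il25), Il17b and Il17f were in the tables, both lower. Of 5 IL-17 receptor chains, 9 signalling genes below the receptor, such as Traf3ip2, Traf6 and Nfkbiz, and 16 genes that IL-17 induces in epithelium, such as Lcn2, S100a8, Cxcl1 and Ccl20, 0 were in the tables. Of 10 genes of the IL-23 and IL-12 subunits, their receptor chains and the kinases and STAT proteins below them, Il23r was listed. Across these 46 genes, 3 were listed as lower and 0 as higher, where 86.9% of all listed genes were lower. The other 43 genes were in neither table, so their levels were not analysed here.

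A list of 20 genes of type 17 lymphocytes had 4 genes in the tables, Il17f, Il23r, 5830411N06Rik and Sox13, and each was lower in ERα-/-.GFP+ MECs, where 86.9% of all listed genes were lower. Batf, which is needed for T helper 17 differentiation and was higher, was not placed on this list. 5830411N06Rik, also named Scart2, encodes a scavenger receptor family protein found on γδ T cells and lies on chromosome 7 from 140247284 to 140300736. On average 205 reads of it were counted per WT.GFP+ sample and 37 per ERα-/-.GFP+ sample, a log2 fold of -2.58 (counting interval -2.88 to -2.28). Of all 651 genes its fold was the nearest to that of Il23r, with a difference of 0.00673 on the log2 scale. Trpm3 and Trpv6 came next, at 0.0253 and 0.0402, and neither is in a lymphocyte list used here. These differences are far smaller than the counting interval of Il23r, from -3.00 to -2.19, so this order is within counting error. None of the 3 genes nearest to Il17f by fold is in a lymphocyte list either. Sox13, a transcription factor of type 17 γδ T cells that is also expressed outside the lymphoid lineage, went from 283 to 124 reads on average, a log2 fold of -1.30 (-1.48 to -1.12). The median log2 fold of the 4 genes was -2.58, beside -1.70 for all lower genes. Ccr6, Il22, Il17a, Maf, Blk, Zbtb16, Cd163l1 and Trdc were among the 16 genes of the list in neither table. The list rests on 2 genes apart from those the description began with, and their median log2 fold was -1.94.

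Transcripts of other lymphocytes went the other way. Of 31 T-cell genes 8 were listed, of 15 cytotoxic-cell genes 7 and of 20 pan-leukocyte genes 5, and these 20 genes were all higher in ERα-/-.GFP+ MECs, where 13.1% of all listed genes were higher. Their log2 folds lay between 0.97 for Ubash3a, a regulator of T-cell receptor signalling, and 1.45 for Klrg1, a receptor of effector T and natural killer cells. Together they held 4593 CPM in WT.GFP+ MECs against 10029 CPM without ERα, a 2.18-fold difference. The log2 fold of Il17f was 4.10 below the median of the listed T-cell genes and that of Il23r 3.68 below it. The defining T-cell receptor genes Cd3d, Cd3e, Cd3g and Trac were in neither table, while Trbc1 and Cd247 were in the higher one. Of 9 B-cell and 15 myeloid genes, 0 were listed. In bulk RNA, fewer cells of a type and less RNA per cell cannot be told apart. The part that the lymphocyte content of the sorted cells has in these differences was not tested.

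Batf, on chromosome 12 from 85686669 to 85709087 on the plus strand, averaged 726 reads per WT.GFP+ sample and 1802 per ERα-/-.GFP+ sample, from 2178 and 5405 reads. In CPM these were 26.7 and 61.4, and the log2 fold was 1.20 with a counting interval from 1.13 to 1.27. It was at position 12 of the 85 higher genes by the size of its fold, with a floor of 3 reads for means of 1 or less. Genes such as Lrtm2, with 0.667 mean reads in WT.GFP+ MECs and 7.33 without ERα, stood below Batf only through this floor. The median log2 fold of all higher genes was 1.05, beside 1.09 for the listed T-cell genes, 1.04 for the pan-leukocyte genes and 1.25 for the cytotoxic genes. Batf was 0.11 above the median of the T-cell genes on the log2 scale, 0.16 above that of the pan-leukocyte genes and 0.04 below that of the cytotoxic genes. Of the 8 listed T-cell genes, 7 had a smaller log2 fold than Batf, and of the 7 listed cytotoxic genes, 2 did. The listed genes whose mean log2 CPM in both genotypes lay nearest to that of Batf were Klrg1, Slfn1, a Schlafen gene of T cells, and Crmp1, with distances of 0.08, 0.12 and 0.15 over the 2 genotype means.

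Of 13 genes of the BATF family, AP-1 and IRF partners, Batf and Fosl1 were listed, in opposite directions. Fosl1, which encodes the AP-1 protein FRA-1, averaged 4324 reads per WT.GFP+ sample and 1918 per ERα-/-.GFP+ sample, a log2 fold of -1.28 (counting interval -1.33 to -1.24). Batf2, Batf3, Irf4, Irf8, Jun, Junb, Jund, Fos, Fosb, Fosl2 and Bach2 were in neither table. The partners with which BATF binds DNA were thus not among the listed genes.

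**Figure D2:**
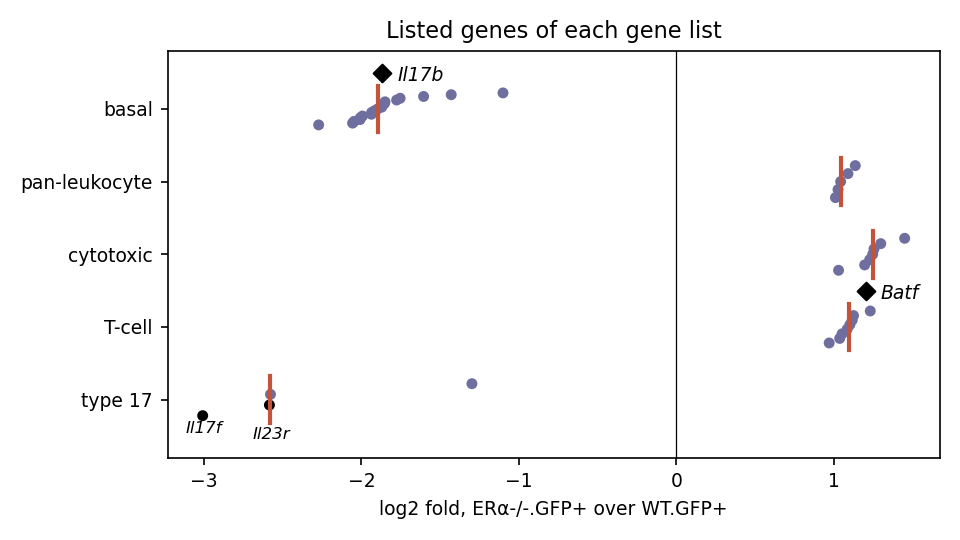
Log2 fold of ERα-/-.GFP+ over WT.GFP+ MECs for the listed genes of 5 gene lists, 1 point a gene, with a red line at each median and diamonds for Il17b and Batf, which are in none of the 5 lists. Il17f and Il23r lie at -3.01 and -2.58, the T-cell, cytotoxic and pan-leukocyte genes between 0.97 and 1.45, and the basal genes between -2.27 and -1.10.

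Il17b lies on chromosome 18 from 61684887 to 61692538 on the plus strand. It averaged 671 reads per WT.GFP+ sample and 199 per ERα-/-.GFP+ sample, from 2014 and 596 reads. In CPM these were 24.7 and 6.77, and the log2 fold was -1.87 with a counting interval from -2.00 to -1.73. An annotated antisense gene, Gm38165, lies within the span of Il17b on the other strand. The kit used does not mark strand, so reads of either could have been assigned to Il17b. Il17b was more abundant than the lymphocyte cytokine Il17f. On the RPKM scale, which divides CPM by the exon length in kilobases, its level in WT.GFP+ MECs was 25.4, against 0.497 for Il17f, 1.67 for Il23r and 19.0 for Batf. In ERα-/-.GFP+ MECs the levels on this scale were 6.96 for Il17b, 0.0618 for Il17f, 0.279 for Il23r and 43.7 for Batf. Batf and Il17b changed places in this order, and Il17f stayed the lowest.

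Of 21 basal and myoepithelial genes 19 were listed, all lower, where 86.9% of all listed genes were lower. Their median log2 fold was -1.90, beside -1.70 for all lower genes, with a range from -2.27 for Col17a1, a hemidesmosomal collagen, to -1.10 for Lamb3, a laminin chain. Il17b, at -1.87, differed from the basal median by 0.03, and 12 of the 19 genes had a larger fall. By fold alone the genes nearest to it were Snai2, Tmem200a and Tagln, of which Snai2, a transcription factor of basal cells, and Tagln, a contractile protein gene, belong to the basal list. By the mean log2 CPM in both genotypes the nearest were Slc2a4, a glucose transporter, Kcnip3, and Ntrk3, a neurotrophin receptor, at distances of 0.01, 0.09 and 0.09. The summed level of the 19 basal genes was 7756 CPM in WT.GFP+ MECs against 2092 CPM without ERα, and the part that the basal cell content of the samples has in the fall of Il17b was not tested. Of 18 luminal genes Pgr, the progesterone receptor gene, was listed, at 129 reads on average against 36.3, a log2 fold of -1.94.

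**Figure D3:**
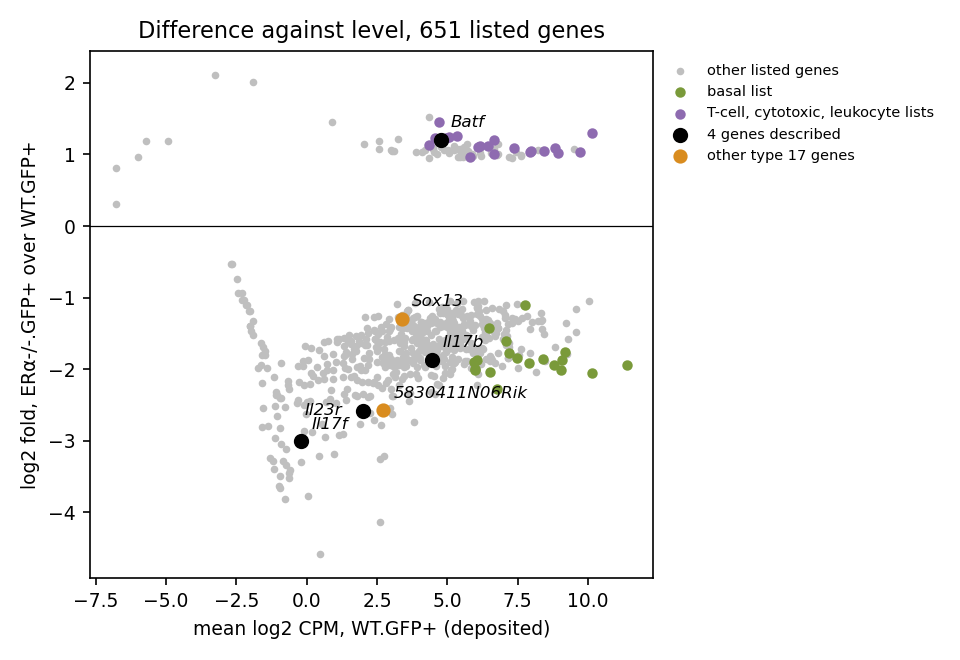
Log2 fold of ERα-/-.GFP+ over WT.GFP+ MECs against the deposited mean log2 CPM in WT.GFP+ MECs for the 651 listed genes. Il17f and Il23r lie on the side of low levels at -3.01 and -2.58 with 5830411N06Rik beside Il23r, Il17b lies at -1.87 among the lower genes, and Batf lies at 1.20 among the purple points of T-cell, cytotoxic and leukocyte genes.

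The low counts limit how Il17f and Il23r can be read. Among the listed genes, 134 were lower by more than 4-fold, which is 20.6% of them, and 2 were higher by more than 4-fold, or 0.307%. Il17f and Il23r are among these 134 and Il17b and Batf are not. The genes with levels nearest to those of Il17f were 9030612E09Rik, Amer2 and Trpv6, which averaged 21.7, 27 and 26.7 reads in WT.GFP+ MECs and 4.33, 4 and 4.67 reads without ERα. The nearest to Il23r were Ptchd4, Art4 and Mb, which averaged 109, 112 and 101 reads in WT.GFP+ MECs and 26, 23.7 and 24.3 reads without ERα. None of these 6 genes is in a lymphocyte list used here.

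The deposited tables give both the mean of the counts and the mean of the log values, and these part company when samples of a genotype are uneven, since a geometric mean falls below an arithmetic one. For Il17f in WT.GFP+ MECs the geometric mean implied by the log values was 23.4 reads, or 0.855 of the mean count. Of 64 listed genes with a like count, 7 had a lower ratio. In ERα-/-.GFP+ MECs the ratio was 0.993, and 31 of 43 like genes had a lower one. Il23r had ratios of 0.969 and 1.02, with 36 of 112 and 56 of 75 like genes below it. Ratios above 1 can arise because depth was set at the median of the abundant genes, or where samples had unequal depths, which are not given.

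Il17b was uneven in WT.GFP+ MECs, with a ratio of 0.899, and 4 of 210 like genes had a lower one, while in ERα-/-.GFP+ MECs it was 1.04, with 155 of 162 like genes below it. Of the 19 listed basal genes, Trp63, which encodes P63, had a ratio of 0.897 in WT.GFP+ MECs and the others lay between 0.931 and 1.02, above that of Il17b. 5830411N06Rik was uneven in WT.GFP+ MECs as well, at 0.872, with 2 of 148 like genes below it. Batf, in contrast, had ratios of 1.02 and 1.04, and 201 of 213 and 91 of 102 like genes had lower ones. Which sample was high or low cannot be read from these means.

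The means also bound what a single sample could have held. For these bounds, depth was set by the most even of the abundant genes and not at their median. This depth is smaller, so the bounds in CPM are on a slightly higher scale than the mean CPM values given above. If the samples of a genotype had equal depths, the lowest possible WT.GFP+ sample had 0.336 CPM of Il17f and the highest possible ERα-/-.GFP+ sample 0.200 CPM. For Il23r these bounds were 2.53 and 0.997 CPM, and for Il17b 10.3 and 8.22 CPM. For Batf the highest possible WT.GFP+ sample had 29.4 CPM and the lowest possible ERα-/-.GFP+ sample 51.7 CPM. For Il17f a sample without any read was not possible at equal depths, since the highest mean log2 CPM it allows was -1.86 for WT.GFP+ MECs and -3.83 without ERα, against deposited values of -0.20 and -2.91. The ranges of the genotypes were therefore apart for 4 of 4 genes at equal depths, and also for 5830411N06Rik and Sox13. The share over all 651 listed genes was not computed. Each of them had passed the authors' thresholds, so this count shows nothing particular to the 4 genes. With depths within 25% of their mean, a limit chosen after seeing the data, the ranges stayed apart for 1 gene, Il23r, at 1.79 against 1.44 CPM. The depth of each sample is not given, so an overlap of the samples cannot be told for any of the 4 genes.

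**Figure D4:**
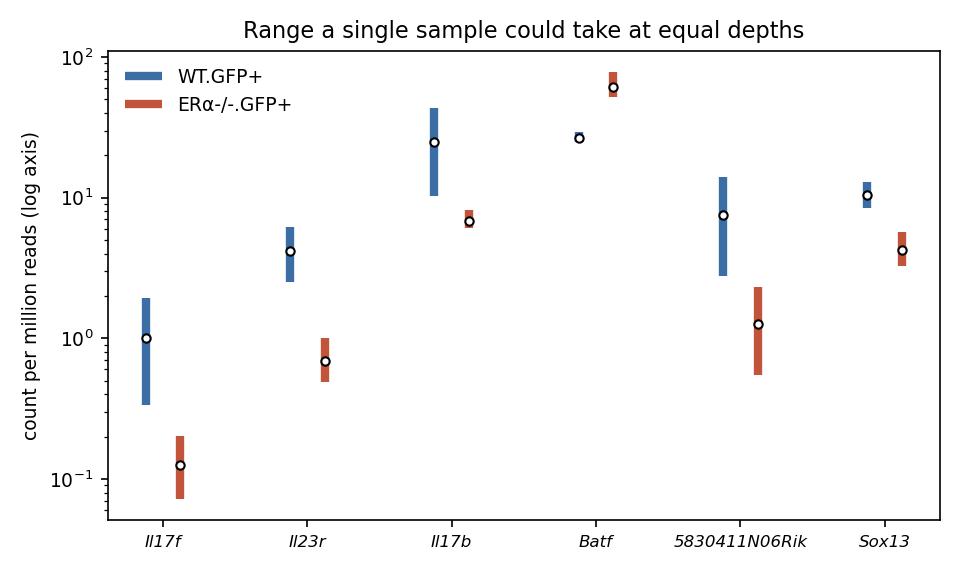
Range of CPM (log axis) that a single sample of WT.GFP+ (blue) or ERα-/-.GFP+ (red) MECs could take if the samples of a genotype had equal depths, given the deposited mean count and mean log2 CPM, with a white point at the mean. The ranges are apart for the 4 genes described and for 5830411N06Rik and Sox13, and they are wider when depths are unequal. On the log axis the narrowest gap is that of 5830411N06Rik, at 2.77 against 2.31. Among the 4 genes it is that of Il17b, at 10.3 against 8.22. The white points use the median depth, and the ranges use the smaller depth set by the most even abundant gene.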

How the data were processed

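RNA from GFP+ cells of 3 WT.GFP+ and 3 ERα-/-.GFP+ samples was amplified with an ultra-low-input kit that does not mark strand for single-end sequencing. Alignment by the authors used HTSstation and mm10, and genotypes were compared in ASAP with edgeR on the most expressed genes. The counter and the annotation are not given in the sources used here. The authors deposited, for called genes only, the mean count of each genotype and the mean log2 CPM. Each mean count times 3 was whole (within 0.001). The lowest deposited log2 value, shared by genes without reads, corresponds to a prior of 0.25 reads at 27418923 reads per sample. The deposited fold changes, p-values and FDR are the authors' own comparison and were not used.

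Depth was the median ratio of mean count to mean CPM over genes averaging 1000 reads or more (220 genes for WT.GFP+, 140 for ERα-/-.GFP+), and folds are ratios of mean counts scaled by depth. A floor of 3 reads stood in for any mean count of 1 or less, which touched none of the 4 genes but shrank the folds of others. Intervals were exact (Clopper-Pearson for folds, Poisson for levels). The bounds of single samples used the smaller depth set by the most even of the genes that gave the median depth. Like genes had a mean count within a factor of 2. Positions and transcript lengths came from GENCODE M21 (650 of 651 identifiers matched), promoters from RefSeq. Gene lists and the 4 genes were chosen with earlier results of these data known. Named genes were the 4 genes, listed members of the lists, interleukin symbols and the 3 nearest genes to each. Folds and intervals were run on simulated Poisson counts at the estimated depths. These had no replicate spread, so the run checked the computation only. The work used matplotlib 3.10.9, scipy 1.17.1, pandas 2.3.3, numpy 2.4.6 and Python 3.11.15. Replicates were not left out in turn, as this takes values of single samples.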

Additional observations from a re-analysis of the deposited data

How the results depend on the processing

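All 4 genes kept their direction under each alternative depth or scale. The log2 fold of Il17b was -1.65 as the difference of the deposited mean log2 values, and that of Batf 1.31 without depth scaling, both outside their counting intervals. For Il17f the fold lay between -3.02 and -2.71 and for Il23r between -2.60 and -2.47. With each mean taken as 1 library, the width of the counting interval of the log2 fold was 3.50 for Il17f, 1.46 for Il23r, 0.466 for Il17b and 0.251 for Batf, and each interval kept the direction. The median log2 fold of the IL-17 cytokines was -1.87 with at least 10 mean reads in both genotypes, which leaves Il17b. Without the 4 genes, the median of the type 17 genes was -1.94 and that of the AP-1 and IRF genes -1.28, against -0.04 with Batf. With depths of the samples within 25% of their mean, an alternative chosen after seeing the data, the sample ranges were apart for 1 gene in place of 4. By fold alone, 0 of the 3 nearest genes of each of the 4 genes were shared with those by level. The other 31 of 45 values stayed within counting error, taken for a fold as its own counting interval, for a list median from that of its middle gene and for a share of like genes as its exact binomial interval. No paired analysis was possible because the tables hold means of each genotype and the labels share 1 number between them. Leaving out replicates was not run for the same reason.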
